A study of Mus musculus with 33 samples.

Results

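The interaction of ESK981 with anti-PD-1 was measured for every protein-coding gene of subcutaneous Myc-CaP tumours. For each gene it is the ESK981 effect with anti-PD-1 (combination minus anti-PD-1) minus the ESK981 effect without it (ESK981 minus vehicle), on a log2(FPKM + 0.5) scale over mouse means. The same number is the anti-PD-1 effect with ESK981 (combination minus ESK981) minus the anti-PD-1 effect without it (anti-PD-1 minus vehicle). A positive value therefore means that the combination lay above what the single treatments add up to. The deposited table listed 22095 protein-coding genes among 48795 genes, and 11639 of them passed the filter on low values and were tested, among 15846 genes of all types.

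Myc-CaP cells come from a prostate cancer of MYC-transgenic mice and were grown here on both flanks of male FVB mice, whose immune system is intact. ESK981 is an oral inhibitor of several kinases that also inhibits the lipid kinase PIKfyve, and anti-PD-1 is an antibody that blocks the inhibitory receptor PD-1 of T cells. Dosing began at a tumour volume of 50 mm3 and ran for 3 weeks, and RNA depleted of ribosomal RNA was sequenced. The 4 groups were ESK981 at 15 mg/kg with the antibody at 200 µg per mouse (the combination, 8 tumours), the antibody with oral vehicle (anti-PD-1, 7 tumours), ESK981 with the isotype control antibody (8 tumours), and oral vehicle with the isotype control (vehicle, 10 tumours). Each group had 5 mice, 13 of the 20 mice had 2 tumours and 7 had 1. Oral agents were given 5 times and antibodies 3 times a week. Mice are numbered 1 to 5 within a group in the order of the labels, and the numbers pair nothing across groups. The labels do not name an antibody clone, and a single grafted cell line stands for the tumour.

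Depth ran from 9.90e+06 to 3.24e+07 fragments per tumour. Genes of ribosomal RNA sequence held FPKM of 19590.9 to 500377 in combination tumours, 36276.1 to 179159 with anti-PD-1, 15042.7 to 86387.1 with ESK981 and 127087 to 240279 with vehicle. The sample descriptions carry 1 of 2 flow cell codes: 9 of 10 vehicle tumours share one, and vehicle 5R shares the other with all 23 treated tumours. Combination minus anti-PD-1 and combination minus ESK981 thus lie within 1 code, whereas ESK981 minus vehicle and anti-PD-1 minus vehicle cross codes. A lane number follows the code, and among treated tumours it nearly follows the group. All anti-PD-1 tumours share 1 lane, which no combination or ESK981 tumour has. Combination and ESK981 tumours share a lane only through combination 1L. The part of the lane in these differences was not tested. Vehicle 5R and anti-PD-1 4R had the lowest depths, 9.90e+06 and 1.13e+07 fragments, but vehicle 3R, which was kept, had 1.157e+07. Vehicle 5R and anti-PD-1 4R also had the highest summed FPKM of mitochondrial genes (90856 and 52728.4). Combination 5R, the only tumour of its mouse, had the most ribosomal RNA sequence (500377 FPKM). These 3 tumours were set apart, and results are given with and without them. Of the defining markers of the tumour cells, Krt8 (3.73 to 117 FPKM over tumours) and Myc (2.93 to 17.2) were present, whereas Krt18 (at most 1.42), Epcam (at most 0.203) and Cdh1 (at most 0.860) were low or absent.

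Activated T cells and natural killer cells secrete interferon gamma, which acts through JAK kinases and the transcription factor IRF1. It induces guanylate-binding proteins, the antigen presentation machinery, chemokines that attract further T cells, and the PD-1 ligand PD-L1 (Cd274). Blocking PD-1 is known to release this circuit in T cells that have met their antigen, and macrophages answer interferon gamma with inflammatory enzymes such as the inducible nitric oxide synthase Nos2.

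With all 33 tumours, no protein-coding gene had a called interaction. In limma, 0 of 11639 passed an adjusted p of 0.05 (0%), while 4 of 15846 genes of any type did (0.0252%). The smallest adjusted p of a protein-coding gene was 0.0599, 39 genes were under 0.1, and at an unadjusted p under 0.05 the interaction was positive for 381 genes (3.27%) and negative for 1416 (12.2%). The median interaction was −0.19, and 3088 genes lay above 0 (26.5%). Median-of-ratios scaling moved this median to 0.03, so single values are read against it. The median standard error was 0.238, wider than that of a single ESK981 effect (0.168), because an interaction adds the errors of 4 group means. Without the 3 tumours the median standard error was 0.179, the median interaction −0.08, and 189 genes were called positive (1.62%) and 216 negative (1.86%). With median-of-ratios scaling as well, 309 were positive and 68 negative. The fit without the 3 tumours leaves out vehicle 5R, so its vehicle group lies wholly in the other flow cell code. There, group and code cannot be told apart for anything that involves vehicle. The statements on single genes that follow therefore give both fits.

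The 2 ESK981 effects differed in spread. Without the antibody, 889 protein-coding genes were called higher (7.64%) and 675 lower (5.8%) in ESK981 than in vehicle tumours, and with median-of-ratios scaling 1478 higher and 1995 lower. With the antibody, combination minus anti-PD-1, 0 genes were called (0%). There the smallest adjusted p was 0.399, and 2 genes were higher and 422 lower at an unadjusted p under 0.05. Across the 11639 genes the effects had an SD of 0.145 with the antibody and 0.415 without it, and their Pearson correlation was 0.38, a description only since genes are not independent. The 2 effects share no tumour. Among the 889 genes that ESK981 raised against vehicle, the effect with the antibody had a median of −0.01 and was above 0 for 401 (45.1%), against 21.4% of all genes. Among the 675 that it lowered, the median with the antibody was −0.19, against −0.92 without it, and 64 (9.48%) were above 0. Over all protein-coding genes the median with the antibody was −0.10. The shares above 0 thus differed between the genes ESK981 raised and those it lowered, and the sizes with the antibody were small. Both sets were picked by their effect without the antibody, which favours large values there, so a smaller median with it is partly built in. ESK981 minus vehicle also crosses flow cell codes, whereas combination minus anti-PD-1 lies within 1 code.

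**Figure D1:**
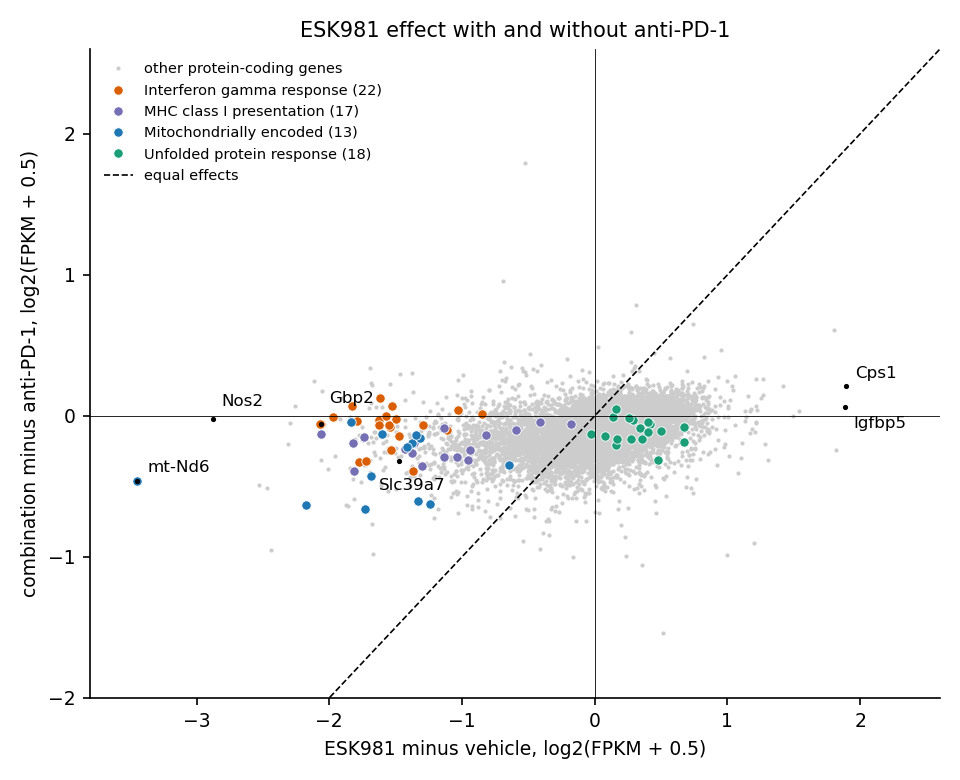
ESK981 effect of each of 11639 protein-coding genes without anti-PD-1 (x axis, ESK981 minus vehicle) and with it (y axis, combination minus anti-PD-1), both as differences of log2(FPKM + 0.5) over 5 mice per group; colours mark 4 gene lists and the dashed line marks equal effects. The x values spread widely (SD 0.415) and the y values narrowly (SD 0.145), and the interferon gamma genes sit to the left at a median of −1.56 on the x axis and of −0.06 on the y axis.

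Inflammatory mediators were 4 of the 6 positive genes with the smallest p. Nos2 (GRCm38 chr11:78920787-78960254, plus strand, the build of all coordinates here) makes nitric oxide in activated macrophages. It measured 8.80, 18.6, 19.7, 6.77 and 2.27 FPKM in the combination, 4.29, 8.82, 8.20, 7.83 and 16.9 with anti-PD-1, 3.21, 0.197, 2.20, 2.25 and 1.94 with ESK981 and 20.7, 19.6, 21.3, 10.2 and 10.2 with vehicle, in mice 1 to 5 of each group. Every ESK981 mouse lay below every vehicle mouse, combination and anti-PD-1 mice overlapped, and combination mouse 5, whose only tumour is one of the 3 set apart, was the lowest of its group. The interaction of Nos2 was 2.86 ± 0.66 (SE; adjusted p = 0.0924), and 3.35 ± 0.59, adjusted p = 0.00861 without the 3 tumours.

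The chemokines Ccl3 and Ccl4, which attract T cells and macrophages, and Ccl2, which recruits monocytes through CCR2, also averaged lowest with ESK981 and highest with vehicle. Ccl4 measured 2.67, 3.72, 5.74, 1.23 and 1.17 FPKM in the combination, 1.99, 1.61, 1.41, 1.99 and 3.57 with anti-PD-1, 0.751, 0.251, 1.32, 0.546 and 0.577 with ESK981 and 6.67, 6.15, 7.19, 3.09 and 2.19 with vehicle. Its interaction was 2.23 ± 0.50 (adjusted p = 0.0857; 2.45 ± 0.48, adjusted p = 0.0162 without the 3 tumours). For Ccl3 the interaction was 1.90 ± 0.46 (adjusted p = 0.0924), and for Ccl2 it was 1.78 ± 0.44 (adjusted p = 0.0931). Ccl2 averaged 4.88 ± 2.64 FPKM in the combination, 4.005 ± 0.619 with anti-PD-1, 1.37 ± 0.514 with ESK981 and 6.28 ± 3.94 with vehicle (SD, n = 5 mice each), and its combination and ESK981 mice did not overlap. All 3 chemokines were called without the 3 tumours. In the list of chemokines outside the CXCR3 ligands, 13 of 14 tested members had an interaction above 0, with a median of 0.84. In the inflammatory myeloid list 7 of 9 did, with a median of 0.92. There Il1b, the cytokine interleukin-1 beta, had an interaction of 1.68 ± 0.45 (adjusted p = 0.123; 1.84 ± 0.40, adjusted p = 0.0214 without the 3 tumours). The list of alternatively activated macrophage genes lay on the same side, with 9 of 9 tested members above 0 and a median of 1.005. Of these 9, 1 was called positive without the 3 tumours. Beside these lists, 26.5% of all protein-coding genes were above 0 and 1.62% were called positive without the 3 tumours.

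The interferon gamma response was the list with the highest median interaction among those with at least 8 members tested. Of 24 genes in the list, 22 were tested, and all 22 had an interaction above 0, with a median of 1.48 against −0.19 over all protein-coding genes. At an unadjusted p under 0.05, 19 of 22 were positive. Without the 3 tumours 17 of 22 were called positive and 0 negative. Among all protein-coding genes 26.5% were above 0, 3.27% were positive at that unadjusted p and 1.62% were called positive without the 3 tumours. The median ESK981 effect of the list was −0.06 with the antibody and −1.56 without it. Within the flow cell code of the treated tumours, combination minus ESK981 had a median of 1.17, while anti-PD-1 minus vehicle, which crosses codes, had −0.36.

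Gbp2, a guanylate-binding protein that attacks vacuoles holding microbes, measured 22.5, 44.05, 60.6, 28.7 and 12.1 FPKM in the combination, 26.3, 28.4, 28.6, 25.5 and 44.4 with anti-PD-1, 13.3, 4.01, 17.1, 7.51 and 9.39 with ESK981 and 43.6, 42.3, 62.96, 52.2 and 20.5 with vehicle. Its ESK981 mice all lay below its vehicle mice, and combination mouse 5 was within the ESK981 range. The interaction was 2.004 ± 0.57 (adjusted p = 0.139; 2.25 ± 0.49, adjusted p = 0.0211 without the 3 tumours). Socs1, the feedback inhibitor of JAK kinases, averaged 2.49 ± 1.57 FPKM in the combination, 1.996 ± 0.719 with anti-PD-1, 0.663 ± 0.352 with ESK981 and 4.06 ± 2.10 with vehicle (interaction 1.90 ± 0.52; 2.12 ± 0.48, adjusted p = 0.0224 without the 3 tumours). The transcription factor Irf1 averaged 17.7 ± 8.08 FPKM in the combination, 17.2 ± 4.34 with anti-PD-1, 8.47 ± 2.61 with ESK981 and 26.5 ± 8.75 with vehicle. Its interaction was 1.46 ± 0.43 (adjusted p = 0.141), and 1.72 ± 0.35, adjusted p = 0.0178 without the 3 tumours. Batf2 and the GTPase Igtp had interactions of 1.59 and 2.01, and both were called without the 3 tumours. The CXCR3 ligands Cxcl9 and Cxcl10 were smaller and uncertain, at 0.97 ± 0.54 (adjusted p = 0.331) and 1.013 ± 0.51 (adjusted p = 0.289), and neither was called without the 3 tumours.

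The promoter windows of Gbp2, Socs1, Irf1 and Psmb8 are shown because these genes averaged lowest with ESK981 and highest with vehicle and carry the letters of interferon motifs. Irf1 has a second window, which held neither motif and is not printed. Sequences are from RefSeq on GRCm38.p6, from 250 bases before to 50 bases after the start, read 5′ to 3′ on the gene's strand. Capitals mark the core of the interferon-stimulated response element (GAAA, any 2 bases, GAAA) or its reverse complement, in Gbp2 and Socs1, where Socs1 has a pair of overlapping matches, and the gamma-activated site, TTCNNNGAA, in Irf1 and Psmb8.
Gbp2, chr3:142620413-142620712, plus strand: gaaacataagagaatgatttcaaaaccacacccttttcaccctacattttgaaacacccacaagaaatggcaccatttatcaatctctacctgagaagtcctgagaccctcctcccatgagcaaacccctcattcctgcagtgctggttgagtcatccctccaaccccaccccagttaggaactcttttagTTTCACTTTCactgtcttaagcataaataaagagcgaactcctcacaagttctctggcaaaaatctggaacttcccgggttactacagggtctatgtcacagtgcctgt
Socs1, chr16:10785487-10785786, minus strand: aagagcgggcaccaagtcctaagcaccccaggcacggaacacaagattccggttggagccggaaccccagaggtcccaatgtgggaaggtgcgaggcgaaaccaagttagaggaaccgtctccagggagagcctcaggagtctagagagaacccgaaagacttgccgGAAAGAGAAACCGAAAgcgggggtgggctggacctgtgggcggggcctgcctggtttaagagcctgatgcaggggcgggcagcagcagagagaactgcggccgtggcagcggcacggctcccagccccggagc
Irf1, chr11:53769764-53770063, plus strand: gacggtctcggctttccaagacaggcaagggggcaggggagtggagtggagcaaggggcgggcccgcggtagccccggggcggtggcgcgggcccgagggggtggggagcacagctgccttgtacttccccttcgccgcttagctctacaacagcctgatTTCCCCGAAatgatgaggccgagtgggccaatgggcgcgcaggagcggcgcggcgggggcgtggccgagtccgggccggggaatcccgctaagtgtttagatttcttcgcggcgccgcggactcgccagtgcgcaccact
Psmb8, chr17:34197945-34198244, plus strand: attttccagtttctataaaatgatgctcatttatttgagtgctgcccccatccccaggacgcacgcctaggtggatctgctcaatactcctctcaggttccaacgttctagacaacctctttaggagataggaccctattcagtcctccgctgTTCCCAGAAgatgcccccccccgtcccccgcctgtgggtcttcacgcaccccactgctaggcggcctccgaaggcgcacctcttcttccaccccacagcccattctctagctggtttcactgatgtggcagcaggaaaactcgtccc
The match begins 59 bases before the start in Gbp2, 83 and 77 before it in Socs1, 90 before it in Irf1 and 97 before it in Psmb8. Of the 22 tested genes of the interferon gamma list, 15 had a window, and 11 of these (73.3%) held the response element core on either strand, against 3.82% of the 8910 tested protein-coding genes with a window and 3.99% of all 27025 genes with one. TTCNNNGAA was found for 8 of these 15 genes (53.3%), against 8.34% and 9.55%. Of the 189 genes called positive without the 3 tumours, 118 had a window and 17 (14.4%) held the core. In the type I interferon list, whose median interaction was near that of all genes, 11 of 20 genes with a window held it (55%). A match is a run of letters and was not tested for binding.

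Antigen presentation genes had positive interactions in both classes. For MHC class I, which shows peptides from inside the cell to CD8 T cells, all 17 members tested were above 0 (median 0.94), 12 were positive at an unadjusted p under 0.05, and 11 were called positive without the 3 tumours. The same 3 shares over all protein-coding genes were 26.5%, 3.27% and 1.62%. Psmb8, a catalytic subunit of the immunoproteasome that cuts these peptides, measured 10.5, 13.8, 22.2, 12.7 and 4.88 FPKM in the combination, 10.4, 12.5, 11.6, 10.4 and 22.97 with anti-PD-1, 7.41, 3.25, 9.26, 5.96 and 5.93 with ESK981 and 19.9, 21.8, 29.2, 32.6 and 13.5 with vehicle. Its ESK981 and vehicle mice did not overlap, and its combination and anti-PD-1 mice did. The interaction was 1.63 ± 0.46 (adjusted p = 0.137; 1.94 ± 0.39, adjusted p = 0.0178 without the 3 tumours), of which 0.87 was combination minus ESK981 and −0.76 was anti-PD-1 minus vehicle. Its partner Psmb9 had an interaction of 1.93 ± 0.55, and the peptide transporter subunit Tap1 had 1.59 ± 0.50. The heavy chains H2-K1 and H2-D1 were at 1.19 ± 0.48 and 1.12 ± 0.42, and the shared light chain B2m was at 0.37 ± 0.47 (adjusted p = 0.672). Only B2m of these 6 genes was not called without the 3 tumours.

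For MHC class II, which shows peptides to CD4 T cells, all 9 members tested were above 0 (median 1.22), 7 were positive at an unadjusted p under 0.05 and 3 were called without the 3 tumours. Again the shares over all protein-coding genes were 26.5%, 3.27% and 1.62%. H2-Ab1, the beta chain of I-A, averaged 67.8 ± 49.7 FPKM in the combination, 80.8 ± 9.92 with anti-PD-1, 21.5 ± 7.20 with ESK981 and 85.9 ± 27.8 with vehicle (SD, n = 5 mice each). Its combination mice spread from 20.7 to 135 FPKM, and its interaction of 1.22 ± 0.56 was not called in either fit (adjusted p = 0.256, and 0.0748 without the 3 tumours). H2-DMa, which loads peptides onto class II, was at 1.41 ± 0.47 (adjusted p = 0.165; 1.65 ± 0.40, adjusted p = 0.0315 without the 3 tumours), and H2-Eb1 at 1.15 ± 0.32, also called there.

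T cell and cytotoxic genes followed. Gzmb (granzyme B, a protease that kills target cells) measured 1.48, 2.85, 4.29, 1.51 and 0.619 FPKM in the combination, 0.768, 1.43, 1.18, 1.45 and 2.74 with anti-PD-1, 0.512, 0.0876, 0.440, 0.254 and 0.279 with ESK981 and 2.49, 2.14, 2.28, 1.42 and 1.36 with vehicle. Each of its combination mice exceeded each ESK981 mouse, and combination and anti-PD-1 mice overlapped. The interaction was 1.76 ± 0.45 (adjusted p = 0.109; 1.95 ± 0.44, adjusted p = 0.0223 without the 3 tumours). The pore-forming protein Prf1 was at 1.54 ± 0.42, the chemokine Ccl5 at 1.96 ± 0.59, interferon gamma itself (Ifng) at 1.28 ± 0.43 and the T cell receptor subunit Cd3e at 1.09 ± 0.38, and all 4 were called without the 3 tumours. Cd8a was at 0.76 ± 0.33 and was not (adjusted p = 0.0576). Ifng was near the detection limit, at 0.840 ± 0.548 FPKM in the combination, 0.610 ± 0.568 with anti-PD-1, 0.153 ± 0.143 with ESK981 and 0.970 ± 0.460 with vehicle.

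All 8 tested members of the CD8 and cytotoxic list had an interaction above 0 (median 1.41), and 5 were called without the 3 tumours. All 9 tested members of the T cell list were above 0 (median 0.73), and 3 were called. Beside both lists, 26.5% of all protein-coding genes were above 0 and 1.62% were called positive without the 3 tumours. The summed FPKM of the T cell list ran from 2.21 to 11.3 over combination mice, 4.95 to 8.20 with anti-PD-1, 1.52 to 2.82 with ESK981 and 3.48 to 9.73 with vehicle. The macrophage list ran from 207.7 to 1131, 407.9 to 624.7, 166.0 to 288.2 and 275.5 to 763 in the same groups, and 14 of its 14 members had an interaction above 0 (median 0.36). In bulk tumours, fewer cells of a type and less RNA per cell cannot be told apart, and the part of cell number in these interactions was not tested.

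Both ligands of PD-1 and the receptor itself had positive interactions, except that with a flow cell term (described further on) Pdcd1lg2 was at −0.36 and Pdcd1 at −0.31. Cd274, the ligand PD-L1 (chr19:29367455-29388095, plus strand), measured 6.14, 16.3, 13.7, 5.42 and 2.28 FPKM in the combination, 5.25, 5.81, 7.09, 7.07 and 10.1 with anti-PD-1, 2.84, 0.914, 2.05, 1.85 and 1.97 with ESK981 and 12.5, 12.3, 13.2, 6.36 and 3.91 with vehicle. ESK981 mice were all below vehicle mice, and combination mice 2 and 3 exceeded every anti-PD-1 mouse, while combination mouse 5 was within the ESK981 range. The interaction was 1.89 ± 0.55 (adjusted p = 0.141; 2.21 ± 0.48, adjusted p = 0.021 without the 3 tumours). Pdcd1lg2, the ligand PD-L2, was at 1.75 ± 0.60, the receptor Pdcd1 at 1.07 ± 0.36 and the inhibitory receptor Lag3 at 1.02 ± 0.34 (−0.20 with the flow cell term), all called without the 3 tumours. The inhibitory ligand Vtcn1 (B7-H4) had the other sign, −0.70 ± 0.35 (adjusted p = 0.29).

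**Figure D2:**
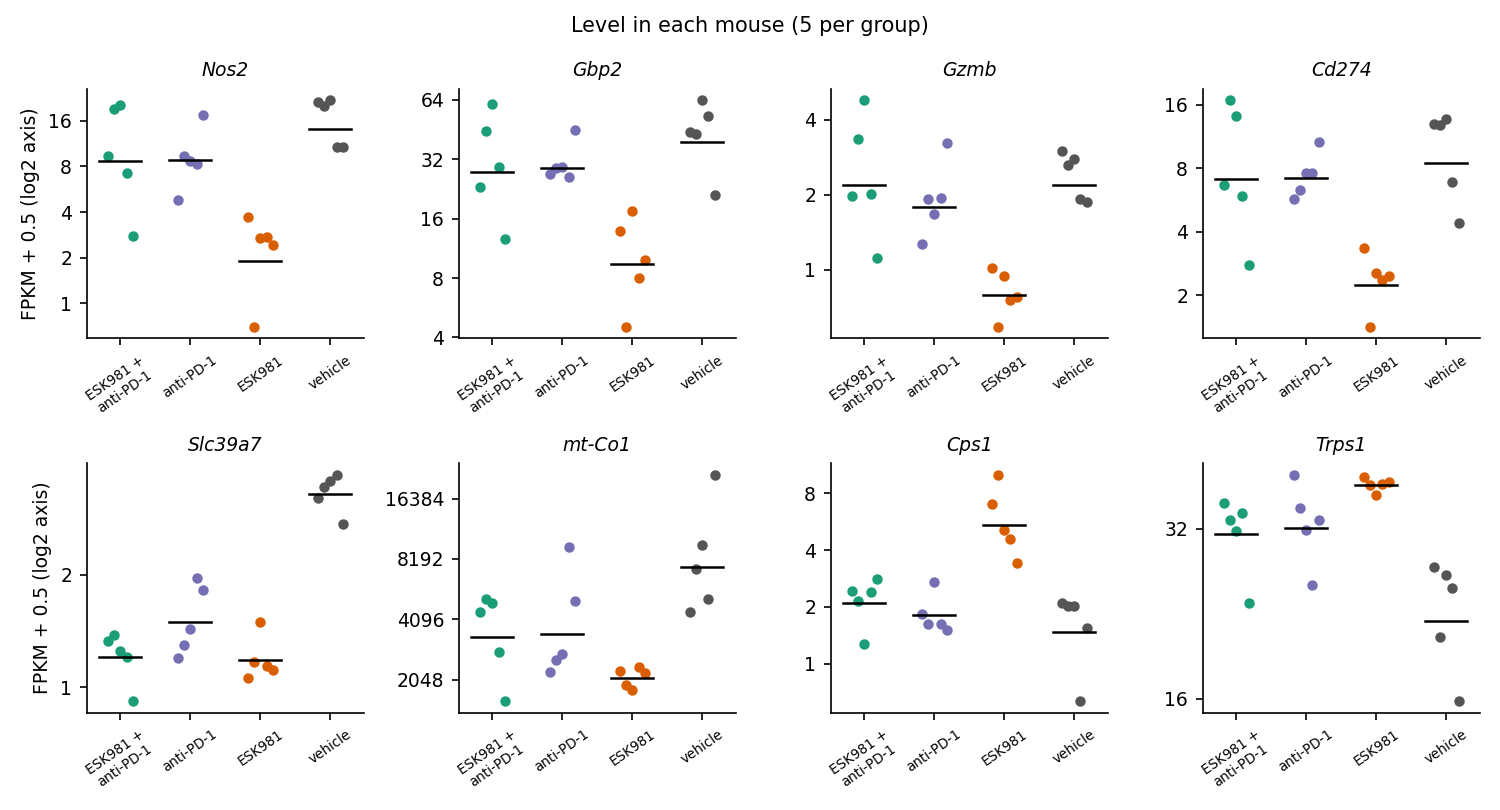
Level of 8 genes in each of 5 mice per group (points), as FPKM + 0.5 on a log2 axis, with the mean of the log2 values as a bar. Nos2, Gbp2, Gzmb and Cd274 are lowest with ESK981, Slc39a7 and mt-Co1 are highest with vehicle, Cps1 is highest with ESK981 and Trps1 is lowest with vehicle.

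Splitting the interaction into its 2 anti-PD-1 effects separated the called genes. With all tumours, combination minus ESK981 had 0 called genes (0%), with 454 higher and 529 lower at an unadjusted p under 0.05, and anti-PD-1 minus vehicle had 6 higher (0.0516%) and 6 lower (0.0516%). Without the 3 tumours, combination minus ESK981 had 35 genes called higher (0.301%) and 1 lower (0.00859%), and anti-PD-1 minus vehicle had 752 higher (6.46%) and 133 lower (1.14%). With median-of-ratios scaling as well, limma called 0 genes for combination minus ESK981 (922 higher and 481 lower at an unadjusted p under 0.05), and anti-PD-1 minus vehicle had 102 called higher and 423 lower, so its balance of directions turned with the scaling. Among the 35 were 7 of the 22 tested interferon gamma genes (Gbp2, Gbp3, Igtp and Batf2 among them), and Nos2, Cd274, Ccl5, Gzmb, Prf1, Cd3e, Cd3g, Ccl3, Acod1 and the leukocyte integrin Itgb2. Acod1 makes the macrophage metabolite itaconate and averaged 5.58 ± 4.27 FPKM in the combination, 3.63 ± 1.27 with anti-PD-1, 0.811 ± 0.451 with ESK981 and 6.21 ± 3.49 with vehicle (SD, n = 5 mice each).

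Of the 189 genes called positive without the 3 tumours, combination minus ESK981 was the larger part for 127, and ESK981 tumours had the lowest mean of the 4 groups for all 127, with vehicle the highest for 120 of them. Their median combination minus ESK981 was 1.07, within 1 flow cell code, and their median anti-PD-1 minus vehicle was −0.36. For the other 62, anti-PD-1 minus vehicle was the larger part (median −0.69), vehicle had the highest mean for all 62, and the median of combination minus ESK981 was 0.16. Of the 216 called negative, the larger part was combination minus ESK981 for 28 and anti-PD-1 minus vehicle for 188, and vehicle had the lowest mean for 187 of these 188. These medians describe the genes that the same fit called, and support nothing by themselves.

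**Figure D3:**
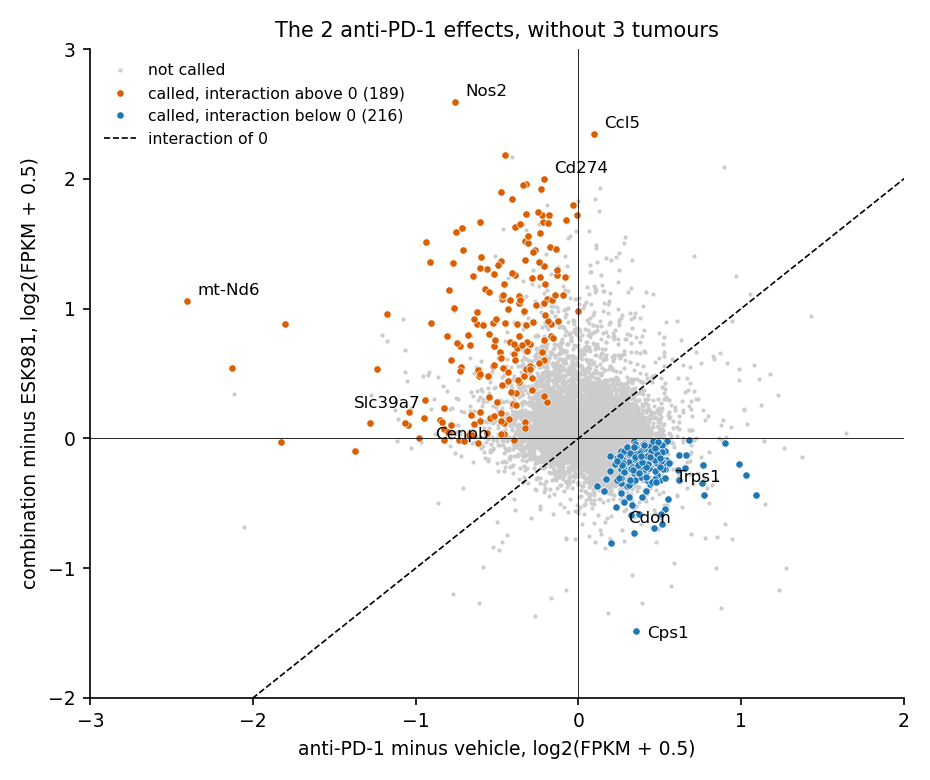
Anti-PD-1 effect of each protein-coding gene without ESK981 (x axis, anti-PD-1 minus vehicle) and with it (y axis, combination minus ESK981), as differences of log2(FPKM + 0.5) in the fit without 3 tumours. Genes called positive (189) extend upward, led by Nos2, and to the left, with Slc39a7 and mt-Nd6, and genes called negative (216) lie to the right (median 0.38 on the x axis).

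The interferon and T cell results crossed flow cell codes in part, and a fit with a flow cell term changed them. That fit ties the 2 codes through vehicle 5R, a tumour of low depth, and it moved the median interaction of all protein-coding genes to −0.63. The interferon gamma list then had a median of −0.21, MHC class I −0.10, MHC class II −0.31, the cytotoxic list −0.11 and the T cell list −0.26, all above the median of all genes and all below 0. With the treated tumours' code alone, which leaves 1 vehicle tumour, these medians were −0.33, −0.18, −0.33, −0.15 and −0.31, beside −0.71 for all genes. The macrophage list was also below 0 with the flow cell term (−0.20). The chemokine, inflammatory myeloid and alternatively activated macrophage lists stayed above 0 (0.82, 0.41 and 0.29). In that fit Nos2 was at 1.77 (adjusted p = 0.245), Gbp2 at 0.03, Cd274 at 0.46 and Cd3e at −0.46. Of 38 genes named here that were called positive without the 3 tumours, 14 were below 0 with the flow cell term, among them Irf1, Tap1, Ccl5, Ifng and Cd3e, and of 17 called negative, 0 were above 0. In that fit 35 protein-coding genes were called positive (0.301%) and 3133 negative (26.9%). The flow cell code and the vehicle group cannot be told apart beyond that 1 tumour, vehicle 5R. In the fit without the 3 tumours, which leaves it out, they cannot be told apart at all.

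**Figure D4:**
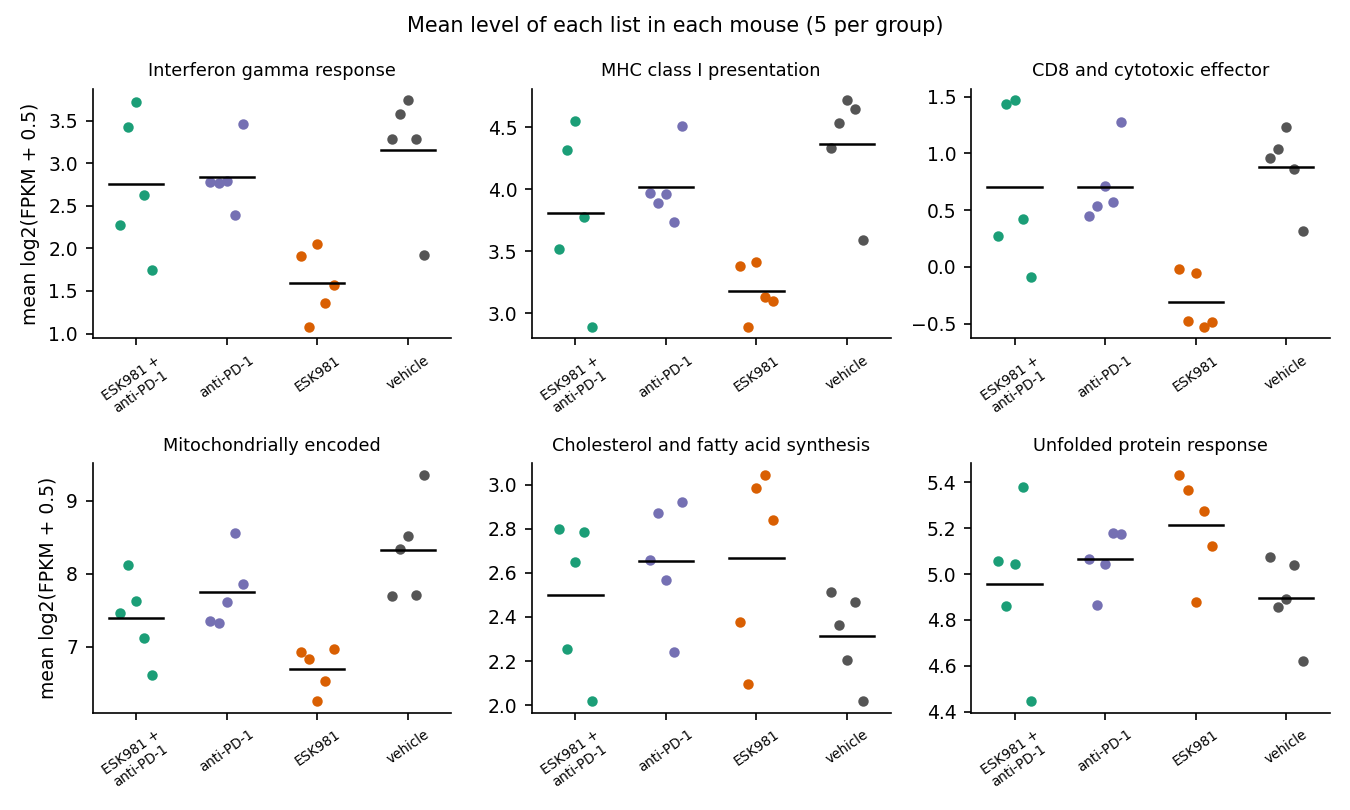
Mean log2(FPKM + 0.5) over the tested members of 6 gene lists in each of 5 mice per group (points), with the group mean as a bar. For the interferon gamma list combination mice span 1.74 to 3.72, anti-PD-1 mice 2.40 to 3.46, ESK981 mice 1.08 to 2.05 and vehicle mice 1.92 to 3.74, and the lowest combination and vehicle mice are both number 5.

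A second set of positive genes was highest in vehicle tumours. Slc39a7 (chr17:34028269-34031682, minus strand), a zinc transporter of the endoplasmic reticulum and Golgi, had the smallest adjusted p of all protein-coding genes. It measured 0.832, 0.883, 0.750, 0.709 and 0.418 FPKM in the combination, 0.700, 0.800, 0.935, 1.47 and 1.32 with anti-PD-1, 0.558, 0.670, 0.992, 0.639 and 0.612 with ESK981 and 2.71, 2.93, 3.07, 3.21 and 2.23 with vehicle. All vehicle mice lay above all mice of the other groups, which overlapped each other. The interaction was 1.16 ± 0.22 (adjusted p = 0.0599; 1.40 ± 0.16, adjusted p = 0.000218 without the 3 tumours), of which combination minus ESK981 was 0.02 and anti-PD-1 minus vehicle −1.13. With the flow cell term it was 0.58 (adjusted p = 0.145).

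Crip1, a small LIM-domain protein, was likewise highest in vehicle (3.04 ± 1.497 FPKM in the combination, 3.47 ± 0.721 with anti-PD-1, 1.90 ± 0.322 with ESK981 and 7.11 ± 1.49 with vehicle), with an interaction of 1.31 ± 0.30 (adjusted p = 0.0924; 1.39 ± 0.31, adjusted p = 0.0223 without the 3 tumours). Cenpb, which binds centromeric DNA, averaged 7.31 ± 2.001 FPKM in the combination, 9.31 ± 1.52 with anti-PD-1, 7.17 ± 1.005 with ESK981 and 16.8 ± 2.98 with vehicle. Its anti-PD-1 and vehicle mice did not overlap, and its interaction was 0.80 ± 0.24. Other genes highest in vehicle were picked because they were called without the 3 tumours. Atp5e, a subunit of ATP synthase, was at 0.81 ± 0.31, the ribosomal protein gene Rps21 at 0.79 ± 0.32 and Tmem160 at 0.79 ± 0.27. With Cenpb, none of these 4 was called with all tumours and all 4 were without the 3, where combination minus ESK981 ran from 0.11 to 0.24. The median of ribosomal RNA sequence was 64908.4 FPKM with anti-PD-1 and 174884 with vehicle, and its part in these values was not tested. The list of cytosolic ribosomal proteins lay near all genes, with a median interaction of −0.16 and 10 of 28 above 0.

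Genes of the mitochondrial genome had positive interactions in 13 of 13 (median 1.19), and 10 were called without the 3 tumours. They encode core subunits of the respiratory chain. Beside them, 26.5% of all protein-coding genes were above 0 and 1.62% were called positive without the 3 tumours. mt-Co1, a subunit of cytochrome oxidase, measured 4432, 5158, 4926, 2814 and 1595 FPKM in the combination, 2229, 2564, 2735, 9381 and 5038 with anti-PD-1, 2249, 1915, 1815, 2362 and 2210 with ESK981 and 4436, 7293, 9646, 5184 and 21578 with vehicle. Vehicle mouse 5 and anti-PD-1 mouse 4 were highest of their groups, and each holds 1 of the 3 tumours set apart. The interaction was 1.80 ± 0.55 (adjusted p = 0.15; 2.13 ± 0.41, adjusted p = 0.0162 without the 3 tumours). mt-Nd6, the 1 protein gene on the light strand, was at 2.99 ± 0.84 (adjusted p = 0.137). Their reads can be shared with nuclear copies, so these values are uncertain. Nuclear genes of oxidative phosphorylation did not follow: 10 of 26 were above 0 and their median was −0.13.

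Genes with negative interactions were spread over many functions. The 6 with the smallest p were Cdon, Deptor, Tgfb3, Itpr2, Hif3a and Slc35d2. Cdon (chr9:35421128-35507652, plus strand), a cell surface co-receptor of Hedgehog signalling, measured 19.5, 16.04, 19.5, 16.1 and 13.9 FPKM in the combination, 19.4, 19.2, 17.4, 26.4 and 15.4 with anti-PD-1, 25.3, 30.4, 24.96, 26.9 and 23.2 with ESK981 and 17.7, 15.3, 14.3, 15.6 and 14.4 with vehicle. ESK981 mice lay above combination and vehicle mice without overlap. The interaction was −0.92 ± 0.19 (adjusted p = 0.0725; −0.76 ± 0.14, adjusted p = 0.0139 without the 3 tumours), and Cdon was the 1 gene called lower in combination minus ESK981 without the 3 tumours (−0.53 ± 0.10).

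Deptor, an inhibitor of the kinase mTOR, averaged 6.76 ± 1.43 FPKM in the combination, 8.34 ± 1.91 with anti-PD-1, 10.4 ± 0.521 with ESK981 and 6.22 ± 0.763 with vehicle, with an interaction of −1.012 ± 0.21 (adjusted p = 0.0725). The growth factor Tgfb3 was at −0.93 ± 0.20 (adjusted p = 0.0847) and the calcium channel Itpr2 at −1.29 ± 0.28 (adjusted p = 0.0847). For Itpr2, combination mice had 1.55 to 2.82 FPKM, anti-PD-1 mice 1.68 to 4.88, ESK981 mice 3.43 to 4.90 and vehicle mice 1.98 to 2.44, so that ESK981 mice overlapped neither combination nor vehicle mice. Hif3a, a hypoxia-inducible factor subunit, was at −0.88 ± 0.19 (adjusted p = 0.0857). It had 5.31 to 7.94 FPKM in combination mice, 8.27 to 9.01 with anti-PD-1, 6.61 to 9.58 with ESK981 and 4.04 to 6.70 with vehicle. Anti-PD-1 mice overlapped neither combination nor vehicle mice, whereas ESK981 mice overlapped each other group. The nucleotide sugar transporter Slc35d2 was at −0.92 ± 0.21 (adjusted p = 0.0924). All 6 were called negative without the 3 tumours. With median-of-ratios scaling as well, Tgfb3, Itpr2 and Hif3a were not (adjusted p = 0.0509, 0.0745 and 0.0562). With that scaling and all tumours, Slc35d2 alone of the 6 was called (adjusted p = 0.04825). With the flow cell term 5 of the 6 were called (adjusted p from 0.00358 for Slc35d2 to 0.0333 for Deptor) and Hif3a was not (adjusted p = 0.0656), in a fit that called 26.9% of all protein-coding genes negative.

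The transcriptional repressors Trps1 and Zbtb20 were among the genes called without the 3 tumours. Trps1 averaged 31.1 ± 4.69 FPKM in the combination, 32.5 ± 5.25 with anti-PD-1, 37.8 ± 1.05 with ESK981 and 22.6 ± 4.82 with vehicle (SD, n = 5 mice each), with an interaction of −0.84 ± 0.24 (adjusted p = 0.139; −0.72 ± 0.12, adjusted p = 0.00498 without the 3 tumours). Its ESK981 and combination mice did not overlap, nor did its ESK981 and vehicle mice. Zbtb20 was at −1.14 ± 0.27 (adjusted p = 0.0924; −1.08 ± 0.20, adjusted p = 0.0109 without the 3 tumours). Negative genes were long: the union exon length of the 188 with the larger part in anti-PD-1 minus vehicle had a median of 7939 bases, that of the 62 positive genes of the same kind 1719, and that of all tested protein-coding genes 4390. In 5 equal bins of exon length the median interaction was −0.07 in the shortest (60 to 2401 bases), −0.14, −0.18 and −0.24 in the next 3, and −0.31 in the longest (7523 to 123179 bases). Anti-PD-1 minus vehicle ran over the same bins from 0.00 to 0.18, and combination minus ESK981, within 1 code, ran from −0.07 to −0.13. Whether this length trend took part in single interactions was not tested.

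Several genes that stood highest in ESK981 tumours lay lower on average in the combination. Cps1 (chr1:67123026-67231259, plus strand), the first enzyme of the urea cycle, measured 1.93, 1.64, 0.773, 1.91 and 2.29 FPKM in the combination, 1.32, 1.12, 2.22, 1.12 and 1.012 with anti-PD-1, 6.55, 9.56, 4.60, 4.09 and 2.90 with ESK981 and 1.61, 1.52, 1.51, 0.130 and 1.04 with vehicle. Each ESK981 mouse exceeded each mouse of the other 3 groups. The interaction was −1.68 ± 0.44 (adjusted p = 0.116; −1.84 ± 0.46, adjusted p = 0.0339 without the 3 tumours). The growth factor binding protein Igfbp5 measured 83.3, 90.6, 127, 109 and 58.6 FPKM in the combination, 92.1, 82.8, 80.3, 87 and 95.02 with anti-PD-1, 460.1, 660, 144, 209 and 166 with ESK981 and 105, 44.3, 56.8, 137 and 50.4 with vehicle, with ESK981 mice 1 and 2 the highest. Its interaction was −1.83 ± 0.48 and that of Igfbp3 was −1.20 ± 0.39, and neither was called without the 3 tumours (adjusted p = 0.0583 and 0.0787). The prolactin receptor Prlr was at −1.13 ± 0.32 (adjusted p = 0.137).

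The share of endothelial genes above 0 was near the background, with 3 of 12 beside 26.5% of all protein-coding genes. Their median interaction was −0.32, and −0.16 with median-of-ratios scaling. With the flow cell term it was −1.23, beside −0.63 for all protein-coding genes. The adhesion molecule Cdh5 (VE-cadherin) averaged 2.26 ± 0.843 FPKM in the combination, 2.22 ± 0.603 with anti-PD-1, 3.04 ± 0.693 with ESK981 and 1.16 ± 0.475 with vehicle and was called negative without the 3 tumours (−0.97 ± 0.25, adjusted p = 0.0348). Esm1, secreted by sprouting endothelial cells, had an interaction of −1.012 ± 0.27 (adjusted p = 0.124; −1.003 ± 0.27, adjusted p = 0.0424 without the 3 tumours). The interaction of Kdr, the main VEGF receptor, was −0.44 ± 0.26 (adjusted p = 0.367), and that of the junction protein Pecam1 was −0.33 ± 0.36 (adjusted p = 0.627). With the flow cell term Cdh5 was at −2.62, Kdr at −1.56 and Pecam1 at −1.88. All of these were called negative there, in a fit that called 26.9% of all protein-coding genes negative.

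Chaperones of the endoplasmic reticulum had negative interactions in 18 of 18 members of the unfolded protein response list (median −0.43), where 26.5% of all protein-coding genes lay above 0. At an unadjusted p under 0.05, 4 of 18 were negative. Pdia4 was called without the 3 tumours, but not with median-of-ratios scaling as well (adjusted p = 0.0803). Pdia4, a disulfide isomerase, averaged 95.02 ± 22.96 FPKM in the combination, 106 ± 9.77 with anti-PD-1, 123 ± 20.02 with ESK981 and 76.03 ± 7.56 with vehicle, with an interaction of −0.86 ± 0.22 (adjusted p = 0.116; −0.78 ± 0.20, adjusted p = 0.0361 without the 3 tumours). Hspa5 (BiP), the main chaperone of the compartment, was at −0.53 ± 0.27 and was not called in either fit (adjusted p = 0.297, and 0.362 without the 3 tumours). Its window is shown as an example of the promoters of this list, with capitals on CCAAT or its reverse complement, of which it held 4.
Hspa5, chr2:34771840-34772139, plus strand: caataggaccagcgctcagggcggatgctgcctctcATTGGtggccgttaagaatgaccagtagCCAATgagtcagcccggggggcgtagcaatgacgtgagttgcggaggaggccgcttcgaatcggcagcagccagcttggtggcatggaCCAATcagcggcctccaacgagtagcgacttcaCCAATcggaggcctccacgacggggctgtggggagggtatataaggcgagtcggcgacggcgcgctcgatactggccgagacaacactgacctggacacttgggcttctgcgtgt
Among genes with a window, 15 of 16 in the list held CCAAT in at least 1 window (93.8%). The same held for 17 of 19 in the cholesterol and fatty acid list (89.5%), against 43.1% of tested protein-coding genes.

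Lipid synthesis, stress and autophagy genes lay on the same side. In the cholesterol and fatty acid list 1 of 27 members was above 0 (median −0.53), 8 were negative at an unadjusted p under 0.05 and 0 were called without the 3 tumours. Sqle, squalene epoxidase, was at −0.92 ± 0.36 and Hmgcs1, an early enzyme of the pathway, at −0.71 ± 0.47, with combination, anti-PD-1, ESK981 and vehicle mice of both genes overlapping. The integrated stress response list had a median of −0.47, with 3 of 18 above 0. For both lists the comparison is with 26.5% above 0 and a median of −0.19 over all protein-coding genes.

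Autophagy genes, which build the vesicles that PIKfyve inhibition is known to affect, had a median of −0.28, with 2 of 31 above 0 and 4 called negative without the 3 tumours. Among all protein-coding genes the median was −0.19, 26.5% lay above 0 and 1.86% were called negative there. The 4 were Ulk2, Atg13 and Rb1cc1, subunits of the kinase complex that starts autophagosomes, and the cargo receptor Nbr1. With median-of-ratios scaling as well, Rb1cc1 alone of the 4 was called (adjusted p = 0.03996). Rb1cc1 averaged 4.28 ± 1.04 FPKM in the combination, 4.28 ± 0.434 with anti-PD-1, 5.33 ± 0.781 with ESK981 and 3.12 ± 0.490 with vehicle (interaction −0.70 ± 0.22; −0.67 ± 0.17, adjusted p = 0.0348 without the 3 tumours). Atg13 was at −0.58 ± 0.18, Ulk2 at −0.54 ± 0.20 and Nbr1 at −0.60 ± 0.20. The vesicle protein Map1lc3b was at −0.46 ± 0.23 (adjusted p = 0.283) and the receptor Sqstm1 at −0.38 ± 0.22 (adjusted p = 0.344). Pikfyve itself averaged 2.64 ± 0.721 FPKM in the combination, 2.37 ± 0.346 with anti-PD-1, 2.56 ± 0.222 with ESK981 and 2.17 ± 0.488 with vehicle, an interaction of −0.11 ± 0.24 (adjusted p = 0.827), and its list had a median of −0.26. With median-of-ratios scaling, which centred all genes near 0, the autophagy median was −0.05, the PIKfyve median −0.05, the unfolded protein response −0.18 and the cholesterol list −0.30.

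**Figure D5:**
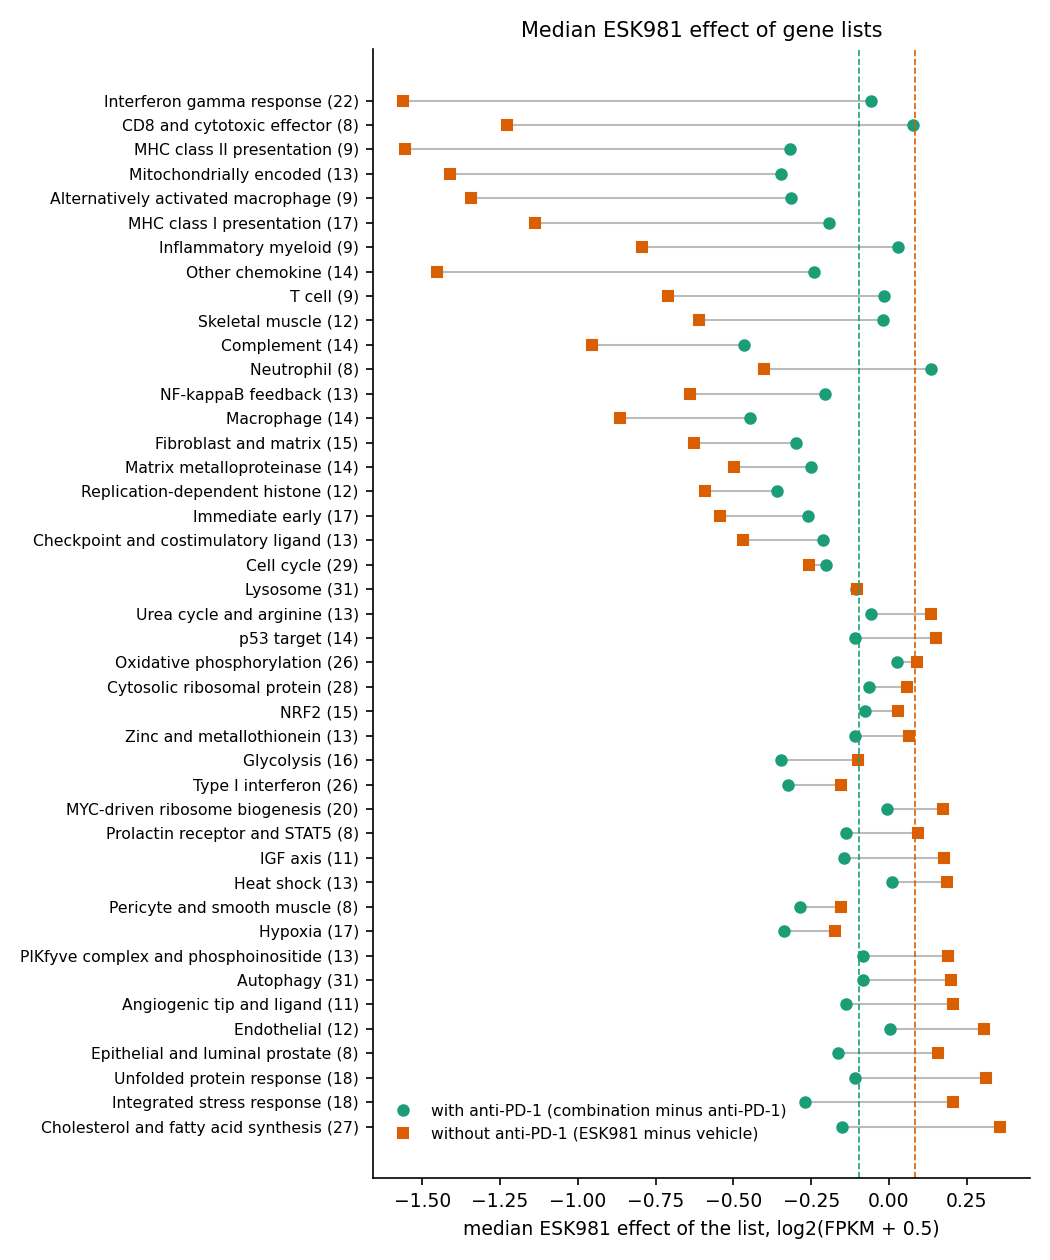
Median ESK981 effect of each gene list with at least 8 members tested (number in brackets), with anti-PD-1 (circles) and without it (squares), ordered by the median interaction, as differences of log2(FPKM + 0.5). Dashed lines give the medians of all protein-coding genes (−0.10 with and 0.08 without anti-PD-1), and the squares spread from −1.56 to 0.36 while the circles stay between −0.47 and 0.14.

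Of 52 lists with at least 3 members tested, 26 had a median interaction above 0 and 37 a median above that of all protein-coding genes. Type I interferon genes did not follow the interferon gamma list. Their median was −0.18, 11 of 26 were above 0, and 2 were positive and 4 negative at an unadjusted p under 0.05. Rsad2 (viperin) had 0.958 ± 0.331 FPKM in the combination, 1.49 ± 0.483 with anti-PD-1, 1.12 ± 0.372 with ESK981 and 0.591 ± 0.322 with vehicle. Its interaction of −1.002 ± 0.31 was called without the 3 tumours (−1.19 ± 0.32, adjusted p = 0.0419), but not with median-of-ratios scaling as well (adjusted p = 0.0552). Ifit1 was at −0.85 ± 0.32. The hypoxia list had a median of −0.25, with 4 of 17 above 0, near the share of all genes. Its median was 0.90 with the flow cell term and 0.89 in the treated tumours' code alone, where that of all genes was −0.63 and −0.71. Cell cycle genes had a median of 0.07, but −0.67 with the flow cell term. Of them, 29 of 29 lay above the median of all protein-coding genes and 19 above 0. ESK981 mice differed widely there, with a mean log2 value of the list from 1.10 to 3.57. ESK981 had the lowest mean over mice (2.76) but the highest median over mice (3.44). That median was 3.02 in the combination, 3.36 with anti-PD-1 and 3.11 with vehicle. Lysosomal genes had a median interaction of −0.06, with 22 of 31 above the median of all protein-coding genes. Without the 3 tumours limma called 0 of 29 cell cycle genes, of which 0 had an unadjusted p under 0.05 with all tumours, and 1 of 31 lysosomal genes.

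Single genes of these programmes were uncertain in both directions. The proliferation marker Mki67 had an interaction of −0.04 ± 0.63 (adjusted p = 0.978), Myc, the driver of the cell line, −0.20 ± 0.30 (adjusted p = 0.724), and Gpnmb, a lysosomal stress marker, 0.60 ± 0.37 (adjusted p = 0.378).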

How the data were processed

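RNA-seq of 33 tumours was deposited as one table of FPKM per gene. Per the submitters' processing notes, the authors used STAR, featureCounts and the mm10 build. Software versions, the annotation and the strandedness are not given in those sources used here. Without stated strandedness, overlapping and antisense genes cannot be told apart. The deposited FPKM are scaled by each library's total, so ribosomal RNA and mitochondrial reads can shift every other gene. Depths were read from the steps between FPKM values.

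FPKM were averaged over the flanks of a mouse on the log2(FPKM + 0.5) scale, giving 20 mouse means, and genes at 0.5 FPKM or more in at least 5 tumours were tested. limma 3.58.1 (R 4.3.3, with a trend) fitted 4 group means with 16 residual degrees of freedom, two-sided, with Benjamini-Hochberg adjustment over all 15846 genes tested and calls at an adjusted p under 0.05. Adjusted p values with all tumours are from this fit, and those without the 3 tumours from the same fit with 1 mouse left out. Those with median-of-ratios scaling are from the same fits on FPKM scaled that way. Those with the flow cell term are from limma on single tumours, with the mouse as a random block and the flow cell code added. All are Benjamini-Hochberg values over all genes tested. The procedure was tested on simulated data. Tables were joined with Python 3.11.15 and pandas 2.3.3.

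Members and gene lists were chosen with earlier results of these data known. Named genes are, for each sign, the 6 protein-coding genes of smallest p where fewer were called, the 2 of smallest p in each list, and a set list of genes of interest. Genes called without the 3 tumours (up to 12 of each sign) were added after their values were seen, as were Irf1, Igtp, Gbp3, Tap1, H2-K1, H2-D1, Acod1, Itgb2, Hmgcs1, Hspa5, Ulk2, Nbr1 and Krt8. The 3 tumours were also chosen with those earlier results known, and leaving them out leaves out 1 mouse, combination mouse 5. A few genes are not reported here.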

Additional observations from a re-analysis of the deposited data

Results flagged for a closer look

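Within groups of 5 mice, 32 of 380 groups of values had a highest or lowest mouse whose gap to the next, divided by the range, exceeded Dixon's critical value of 0.71. Chance gives about 1 in 20 groups. Combination mouse 5 stood apart for Atg13 (3.863 FPKM), Atp5e (6.523 FPKM), Kdr (0.5257 FPKM), Pikfyve (1.37 FPKM), Trps1 (23.12 FPKM), the Autophagy list (mean log2 value 2.017) and the PIKfyve complex and phosphoinositide list (mean log2 value 1.593). Anti-PD-1 mouse 2 stood apart for Prlr (20.85 FPKM). Anti-PD-1 mouse 4 stood apart for Mki67 (13.98 FPKM), Nbr1 (9.694 FPKM) and the PIKfyve complex and phosphoinositide list (mean log2 value 1.952). Anti-PD-1 mouse 5 stood apart for H2-D1 (258.1 FPKM), H2-K1 (152.6 FPKM), Ifng (1.61 FPKM) and Psmb8 (22.97 FPKM). ESK981 mouse 2 stood apart for Cd274 (0.914 FPKM), Nos2 (0.197 FPKM) and the PIKfyve complex and phosphoinositide list (mean log2 value 2.195). ESK981 mouse 3 stood apart for Vtcn1 (0.1142 FPKM). ESK981 mouse 5 stood apart for Ccl3 (0.3447 FPKM). Vehicle mouse 1 stood apart for Tgfb3 (9.612 FPKM). Vehicle mouse 2 stood apart for the Alternatively activated macrophage list (mean log2 value 3.133). Vehicle mouse 4 stood apart for Cps1 (0.1298 FPKM). Vehicle mouse 5 stood apart for Cxcl9 (5.097 FPKM), H2-Ab1 (38.06 FPKM), H2-DMa (3.759 FPKM), Igtp (10.05 FPKM), Pdcd1 (0.4315 FPKM), the Interferon gamma response list (mean log2 value 1.919), the MHC class II presentation list (mean log2 value 3.206), the Autophagy list (mean log2 value 2.192) and the PIKfyve complex and phosphoinositide list (mean log2 value 1.69). 

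Outside protein-coding genes, 4 genes were called for the interaction by limma with all tumours, so that their ESK981 effects with and without anti-PD-1 differed by the test of the difference itself. The interaction was −1.62 for the microRNA gene Gm23134, 1.64 for the processed pseudogene Gm15466, 3.12 for Scarna17 and 3.92 for the small nucleolar RNA gene Gm23547. In this order, combination minus ESK981 was −0.38, −0.11, 0.265 and −0.76. Anti-PD-1 minus vehicle, which crosses flow cell codes, was 1.24, −1.76, −2.85 and −4.68. Vehicle had the lowest mean of the 4 groups for Gm23134 and the highest for the others. The part of the flow cell code in these interactions was not tested. Reads of such short or duplicated genes can be shared between copies.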

How the results depend on the processing

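Counts of protein-coding genes called by limma moved with the processing, and the cause was not tested. For the interaction (0 called), a pseudocount of 1 gave 1, median-of-ratios scaling 30, single tumours with the mouse as a random block 1, that block with a flow cell term 3168, the treated tumours' flow cell code alone 3399, leaving out the 3 tumours 405, array weights 1090, FPKM rescaled to nuclear protein-coding genes 79, the 3 tumours left out with median-of-ratios scaling 377, and an adjusted p under 0.1 gave 39. Leaving out 1 mouse at a time gave 0 to 14. The ESK981 effect with anti-PD-1 (0) had 2 calls with array weights and 0 to 5 with 1 mouse left out. The ESK981 effect without it (1564) had 931 calls with no filter, 3473 with median-of-ratios scaling, 2449 with the block, 4585 with the flow cell term, 4264 in the treated code, 574 with right flanks only, 3703 without the 3 tumours, 927 without ESK981 tumours 1R and 2R, 4679 with array weights, 3494 rescaled, 3938 with both changes, 2686 at the wider threshold, and 611 (without vehicle mouse 2) to 2809 (without combination mouse 5) with 1 mouse left out. Combination minus ESK981 (0) had 36 without the 3 tumours and 0 with any 1 mouse left out. Anti-PD-1 minus vehicle (12) had 4, 180, 25, 3478, 3936, 1, 885, 1525, 403, 525 and 53 under no filter, median-of-ratios scaling, the block, the flow cell term, the treated code, right flanks, the 3 tumours left out, array weights, rescaling, both changes and the wider threshold. It had 2 when adjusted over protein-coding genes alone, and 2 to 79 with 1 mouse left out.

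Under the flow cell term 35 interaction calls were positive and 3133 negative, under median-of-ratios scaling 27 and 3, and with the 3 tumours left out as well 309 and 68. The number of lists whose median lay above that of all protein-coding genes was 37, and 34 to 39 with 1 mouse left out. Of 38 named genes called positive without the 3 tumours, 14 were below 0 with the flow cell term (Igtp at −0.54, Cd3e at −0.46 and Batf2 at −0.35, for example). Rescaling, the combined change and the wider threshold were added after seeing the data. No paired analysis was possible because replicate numbers only name mice within a group. Depth and 5 mice a group limit single interactions, whose median standard error was 0.238.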
